A study of Rattus norvegicus with 4 samples.

Results

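The features described here are 104 array features whose ratio between growth hormone-treated and untreated rat hepatocytes had 1 sign on both arrays of 24 h and a mean away from 0 over them, and a mean near 0 over both arrays of 48 h. They were chosen by their measured ratios. A feature needed a value on all 4 arrays, the same sign on both 24 h arrays, a 24 h mean of at least 0.585 in size (a change of 1.5 times on the log2 scale) and a 48 h mean under 0.3 in size (1.23 times). Of 6240 features on the array, 1204 had a value on all 4 arrays, and the 104 made up 8.6% of these. At 24 h, 24 of the 104 had positive and 80 had negative ratios.

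The cells were primary rat hepatocytes, the metabolic cells of the liver, taken from the animal and kept in culture on Matrigel, a basement membrane extract, in Williams E medium with added insulin and vitamin C. Treated cells received bGH (bovine growth hormone, by its usual abbreviation) at 100 ng/ml for 24 h or 48 h, and each was set against untreated cells harvested alongside. Per the labels the insulin concentration was high at 24 h, and for 48 h no insulin level is named. Each time had 2 arrays with 2 channels: per the labels' channels, channel 2 held the treated RNA on the first array of 24 h and the second of 48 h, and channel 1 held it on the others. Both 48 h labels name the dye Cy3 for the treated RNA, although its channel differs, so the labels do not settle whether the dyes were exchanged at 48 h. Rat strain and age are unstated in the sources used here. The titles call the 24 h arrays forward and reverse, and the 48 h titles hold no such word. The labels do not settle whether the arrays of a time held separate cultures, so the spread between them may be technical.

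Growth hormone acts on hepatocytes through its receptor and the kinase JAK2, which activates the transcription factor STAT5b. Targets of STAT5b include the gene of the circulating growth factor IGF-1 and genes of the SOCS family and CISH, whose products damp signalling from the receptor, so responses of this pathway can be brief. The features carry plate-and-well IDs, and 0 of 6240 matched an entry of the rat RefSeq gene table (assembly GRCr8). The files do not pair the IDs with genes, so no feature is given a gene or a role, and growth hormone targets and cell type markers could not be looked up. A change in RNA per cell cannot be told apart from a change in the mix of cells in the dish. Which channel forms the numerator is unstated in the sources used here, so positive does not mean higher in treated cells; the ratios are read as log2 values, and their signs as deposited.

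At 24 h the 24 positive features lay between 0.30 and 1.54 on the first array, with a median of 1.05. On the second 24 h array they lay between 0.18 and 1.01, with a median of 0.49. The 80 negative features ranged from -3.26 to -0.32 on the first array (median -1.03) and from -3.75 to -0.03 on the second (median -0.70). The first 24 h array thus gave the larger ratios in both directions. It was the larger of both arrays in 80 of 104 features (76.9%), beside 778 of all 1204 (64.6%). Both 24 h arrays reached 0.585 in 51 of the 104. In 44 the first array alone did so, and in 9 the second alone. These values chose the features and are a description.

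**Figure D1:**
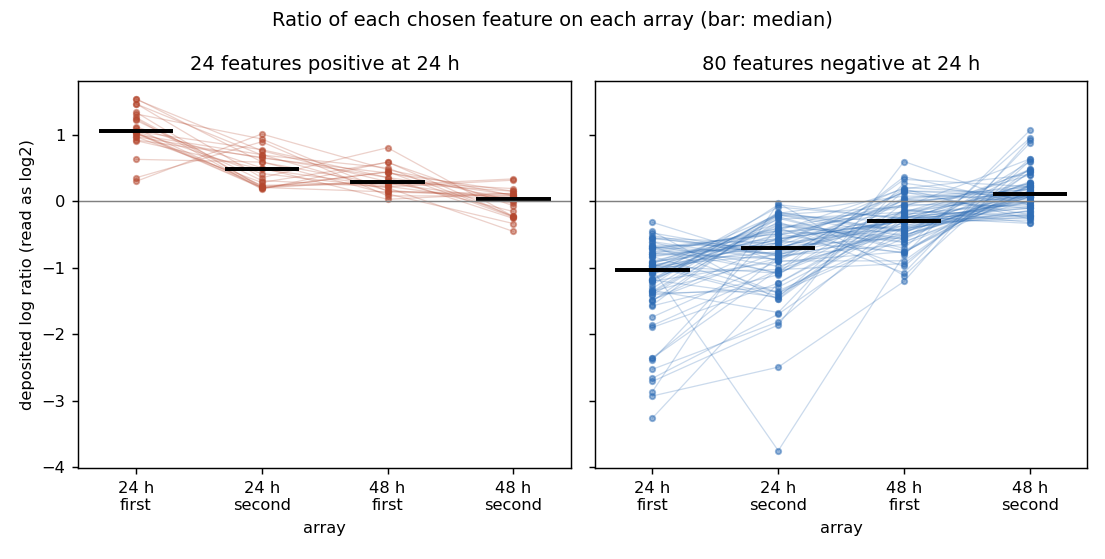
Log ratio of each of the 104 features on each array (vertical axis, read as log2), with 24 positive features on the left and 80 negative ones on the right; a line joins the values of 1 feature and a black bar is the median. The medians of the positive features are 1.05, 0.49, 0.29 and 0.04 from left to right, and those of the negative ones -1.03, -0.70, -0.29 and 0.10.

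A 24 h mean of at least 1 log2 unit, or 2 times, was reached by 32 features, 4 positive and 28 negative. The lower edge of the set was not a gap in the data. The smallest 24 h mean inside it was 0.594 in size, and the largest just outside was 0.579. Within 0.1 of the 24 h threshold there were 27 features above it and 52 below it that met the other conditions. At the 48 h limit the nearest means were 0.299 inside and 0.307 outside, with 38 features within 0.1 below and 32 within 0.1 above.

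The highest 24 h means belonged to RGIAF89 and RGIAQ41, and the lowest to RNABO24 and RNABO32. RGIAF89 had ratios of 1.53 and 0.76 on the 24 h arrays and of 0.29 and 0.19 on the 48 h arrays. RGIAQ41 had 1.31 and 0.94 at 24 h and 0.15 and 0.11 at 48 h. In both, the 24 h values lay above both 48 h values, and all 4 ratios were positive.

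RNABO24 had ratios of -2.93 and -2.50 at 24 h, and of -1.21 and 0.93 at 48 h. RNABO32 had -1.02 and -3.75 at 24 h, and -0.81 and 1.06 at 48 h. Their 48 h means of -0.14 ± 1.51 and 0.13 ± 1.33 (SD, n = 2 arrays) were thus near 0 because the first 48 h array was negative and the second positive. On the first 48 h array both features were still past 0.585 with the sign of 24 h.

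The rule limited the 48 h mean and not the single 48 h arrays. It still bears on their signs, since a feature with 1 array past 0.6 in size can keep a mean under 0.3 only if the other has the opposite sign. Both 48 h arrays were under 0.3 in size in 41 of the 104 features (39.4%), beside 440 of all 1204 (36.5%). In 60 features (57.7%) the 48 h arrays had opposite signs, and in 54 of these the first array kept the sign of 24 h while the second had the other sign. The reverse was seen in 6. Over all 1204 features the same counts were 445 (37%), 324 (26.9%) and 121 (10%), with no limit on the 48 h mean. In 17 of the 60 an array was past 0.6, so the rule fixed the opposite signs, and among the other 87 features they were seen in 43 (49.4%). In 34 features (32.7%) both 48 h arrays kept the 24 h sign, beside 583 of all 1204 (48.4%). In 10 (9.6%) both had the opposite sign, beside 176 of all 1204 (14.6%).

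Taken singly, the first 48 h array had the sign of the 24 h mean in 88 features (84.6%), beside 907 of all 1204 (75.3%). The second had it in 40 (38.5%), beside 704 of all 1204 (58.5%). Turned so that the 24 h direction is positive, the ratios had a median of 0.29 on the first 48 h array, from -0.60 to 1.21, and of -0.09 on the second, from -1.06 to 0.34. Over all 1204 features the same medians were 0.24 and 0.06. The first 48 h array was at least 0.585 in the 24 h direction in 17 of the 104 features (16.3%), beside 277 of all 1204 (23.0%). The second was at least 0.585 against that direction in 8 (7.7%), beside 37 of all 1204 (3.1%). At least 1 of the 48 h arrays was past 0.585 in size in 20 features (19.2%), beside 354 of all 1204 (29.4%), where no limit on the 48 h mean applied. All 24 positive features were positive on the first 48 h array, and 14 of them on the second. Of the 80 negative features, 64 were negative on the first and 26 on the second.

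**Figure D2:**
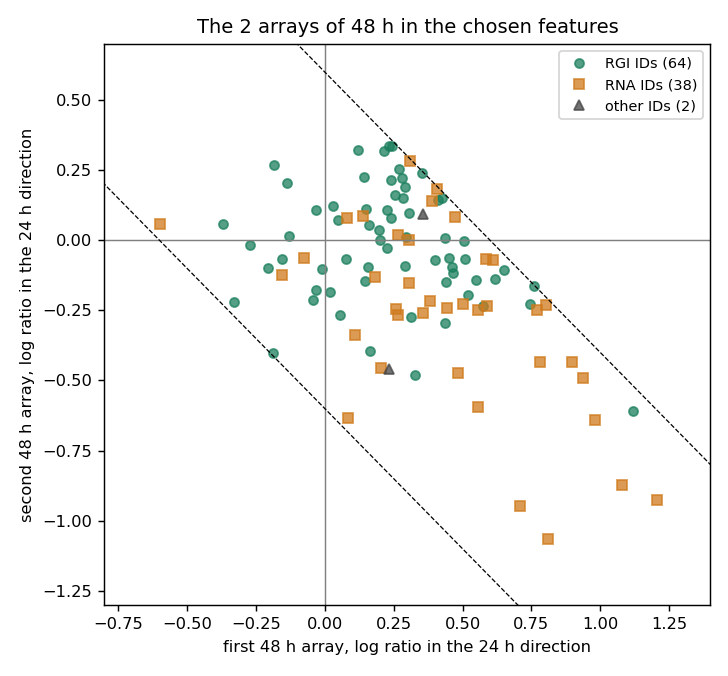
Ratio on the first (horizontal) against the second 48 h array (vertical) in the 104 features, signs turned so that the 24 h direction is positive; dashed lines are the limit of 0.3 on the mean, and colours mark the ID families. The 54 features at the lower right kept their 24 h direction on the first array and had the other sign on the second.

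For comparison, 670 features also had a 48 h mean under 0.3 but did not meet the 24 h conditions. In these the 48 h arrays had opposite signs in 327 (48.8%), and the first keeping the 24 h sign against the second was seen in 222 (33.1%). The first 48 h array had the sign of the 24 h mean in 66.7% of the 670 and the second in 49.3%. Both 48 h arrays were under 0.3 in 399 (59.6%), and at least 1 was past 0.585 in 31 (4.6%). Where both 48 h arrays were under 0.6, opposite signs were seen in 300 of 643 (46.7%), close to the 49.4% above, and the first 48 h array had the 24 h sign in 66.3% of the 643 and 81.6% of the 87 while the second had it in 50.4% and 46.0%. The median gap between the 48 h arrays was 0.23 in these and 0.36 in the 104. The 24 h mean was 0.22 in size at the median of the 670 and 0.81 at that of the 104. The 670 also did not need 1 sign on both 24 h arrays. Their 24 h sign is thus less sure, and the shares of signs are not from like groups. Features were not tested against features here, since they share arrays. The arrays also differed in spread over the 1204 features, with SDs of 0.84 and 0.57 at 24 h and 0.63 and 0.42 at 48 h. With the arrays scaled to equal median absolute deviation, 67 features met the rule, and the first 48 h array had the 24 h sign in 82.1% of them and the second in 41.8%. After quantile normalization 69 met it, with 85.5% and 33.3%. The first 48 h array thus had the 24 h sign more often than the second under both scalings too.

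Without the second 48 h array, 58 features met the rule, 51 of them among the 104 (49.0% of the 104 and 87.9% of the 58). Without the first 48 h array 151 met it, 82 of them among the 104. Without the second 24 h array there were 221, 95 of them among the 104, and without the first 24 h array 105, of which 60 were among the 104. Membership thus depended on single arrays.

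A small 48 h mean is not the same as a return to 0 at this precision. The standard error of a 48 h mean was 0.24 at the median of the 104 features (limma fit over all 1204 features, with a spread shared by both times). The 95% interval reached 0.59 to either side at the median, and from 0.42 to 1.76 over the 104. In all 104 it was wider than the limit of 0.3.

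The limma counts follow as a description, because the rule used the same values. At 24 h, 15 of the 104 (14.4%) passed an adjusted p of 0.05, 1 positive and 14 negative, beside 4.73% of all 1204 features. Of the 104, 0 passed without the first 24 h array, 9 with array weights and 8 with a channel term, the last added after the values were seen. The shares of all 1204 features under these other fits are not given here, so whether the lower counts are particular to the set is unknown. In the main fit, 85 (81.7%) had an unadjusted p under 0.05 at 24 h, beside 22.8% of all. At 48 h, 0 of the 104 passed limma's test after adjustment, beside 1.08% of all, and 0 had an unadjusted p under 0.05, beside 12.5% of all; the limit of 0.3 on the mean fixes this. The difference between 48 h and 24 h passed limma's test after adjustment in 0 of the 104, beside 0% of all 1204, and the smallest adjusted p among the 104 was 0.16. At an unadjusted p under 0.05 it was met by 39 (37.5%), 5 positive and 34 negative at 24 h, beside 6.56% of all. The median difference was 0.69 in size, with a median standard error of 0.34. The arrays of the times did not overlap in 75 of the 104 (72.1%), beside 35.6% of all.

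RGIAF89 differed between the times by -0.90 ± 0.33 (SE) and RGIAQ41 by -0.99 ± 0.27, while RNABO24 differed by 2.57 ± 0.68 and RNABO32 by 2.52 ± 1.0. Loss of the 24 h ratio by 48 h was therefore not shown for any single feature of the set after adjustment over all features, and the set is named here by its rule.

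The means at both times place the 104 features among the 271 that met the 24 h conditions, 85 positive and 186 negative. The 104 were 28.2% of the 85 and 43.0% of the 186. A further 79 features, 28 positive and 51 negative, kept 1 sign on all 4 arrays with a 48 h mean of at least 0.585, and 88 met neither description. The 24 h mean was 0.81 in size at the median of the 104 and 1.11 at that of the 79. The gap between the 24 h arrays was 0.54 and 0.51 at the median, so the 104 had smaller 24 h means over a similar gap between arrays. Both 24 h arrays reached 0.585 in 49.0% of the 104 and in 74.7% of the 79.

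**Figure D3:**
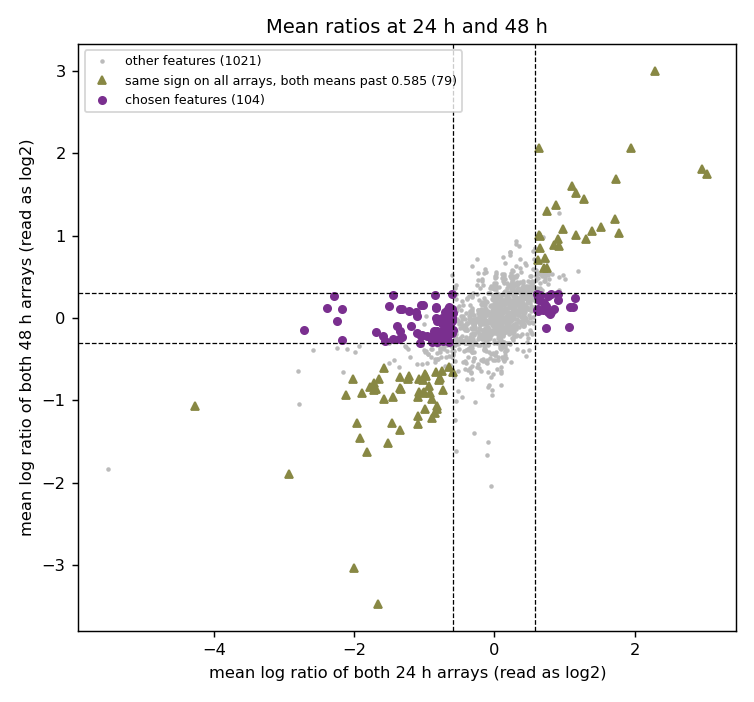
Mean ratio at 24 h (horizontal) against 48 h (vertical) for each of 1204 features measured on every array, read as log2; dashed lines mark 0.585 at 24 h and 0.3 at 48 h. The 104 chosen features fill the 2 bands at the sides, next to 79 features past 0.585 at both times with 1 sign on all arrays.

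The rule with the times exchanged, a 48 h mean of at least 0.585 with 1 sign on both 48 h arrays and a 24 h mean under 0.3, was met by 26 features, 7 positive and 19 negative at 48 h. As deposited, features past the threshold at 24 h with a mean near 0 at 48 h numbered 104, against 26 the other way. This order did not hold without the second 48 h array, where the counts were 58 and 64. It held with each other array left out. The counts were 105 and 38 without the first 24 h array, and 221 and 31 without the second. Without the first 48 h array they were 151 and 46. Leaving out an array drops the condition of 1 sign at its time, so both rules are not alike in these counts. After the arrays were scaled to equal median absolute deviation the counts were 67 and 52, and after quantile normalization 69 and 57. In the scaled data 64 of the 67, and in the quantile-normalized data 66 of the 69, were among the 104.

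A stricter form of the rule, applied after the values were seen, asked for 0.585 on each 24 h array and under 0.3 on each 48 h array. It left 21 of the 104 features, 3 positive and 18 negative. The 3 positive ones were RGIAF89, RGIAQ41 and a feature with ratios of 0.999 and 0.70 at 24 h and 0.16 and 0.06 at 48 h. The 18 negative ones lay between -3.26 and -0.61 on the first and between -1.67 and -0.62 on the second 24 h array, with medians of -0.95 and -0.84. Their 48 h medians were -0.08 and 0.01. By this rule the 24 h and 48 h values of the 21 features are apart on every array, and RNABO24 and RNABO32 were not among them.

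The feature IDs fall into 2 large families by their first letters. Among IDs starting with RGI, 64 of 708 features with 4 values (9.0%) were in the set, 10 positive and 54 negative. Among IDs starting with RNA there were 38 of 489 (7.8%), 13 positive and 25 negative. The other 2 came from 7 features with other IDs. Among all features that met the 24 h conditions, RGI IDs had 30 positive and 127 negative, and RNA IDs had 51 and 58. The RGI features were thus more often negative there too. Within the set the families were further apart in their 48 h arrays. The same shares over all RGI and all RNA features are not given here, so whether the contrast is particular to the set is unknown. In the RGI features of the set the 48 h arrays had opposite signs in 31 of 64 (48.4%) and at least 1 was past 0.585 in 5 (7.8%). In the RNA features the arrays had opposite signs in 28 of 38 (73.7%), and at least 1 was past 0.585 in 15 (39.5%). In the 24 h direction, the medians on the first and second 48 h arrays were 0.24 and -0.02 for RGI and 0.43 and -0.24 for RNA. Both 48 h arrays were under 0.3 in 33 RGI and 8 RNA features. Features with an array past 0.6 had opposite signs by the rule, which touches both counts. What the families stand for is unstated in the sources used here, and the difference between them was not tested.

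The 104 features came from 47 of 65 plates, and 40 of these plates held 1 to 3 of them. The plate RGIAA held 10 of 61 features with 4 values (16.4%), RGIAE 8 of 53 (15.1%) and RGIAD 6 of 36 (16.7%). All 24 of these were negative at 24 h. The plates were picked out after their counts were seen. Over all its features with 4 values, RGIAE had 24 h means with a median of -0.47 and 48 h means with one of -0.20, so the plate as a whole lay below 0. RGIAA had medians of 0.16 and 0.16, while the median of its 10 features of the set was -1.17 at 24 h and 0.07 at 48 h. With each plate's median subtracted on each array, a setting added after the values were seen, 104 features again met the rule, 31 positive and 73 negative, and 65 of them were the same.

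**Figure D4:**
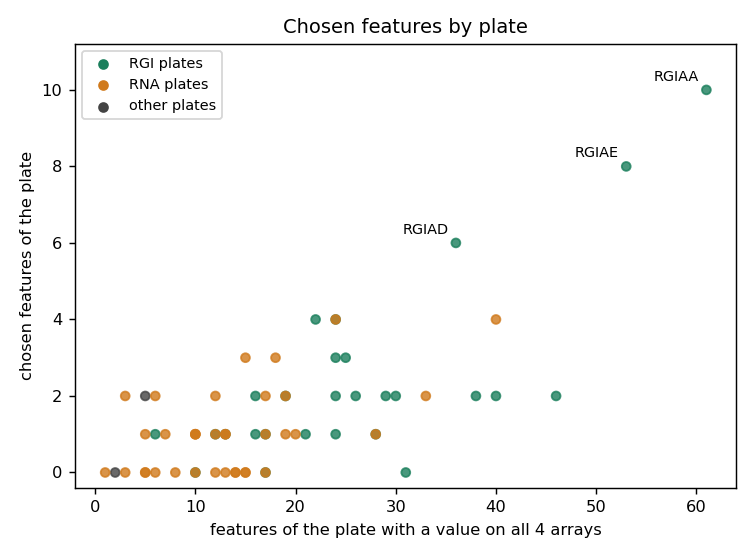
Number of chosen features (vertical) against the number of features with a value on all 4 arrays (horizontal), 1 point per plate and 65 plates in all, coloured by ID family. RGIAA, RGIAE and RGIAD hold 10, 8 and 6 chosen features.

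Some members of the set lay in neighbouring wells. Of the 104 features, 14 (13.5%) had another of them in the next or previous well, beside 51 of the other 1100 (4.6%). They formed 6 runs, 5 of them all negative and 1 of mixed sign, with 3 wells in the longest. All runs lay on the plates RGIAA, RGIAE and RGIAK, and RGIAA and RGIAE held the most features of the set. The other 1100 also came from plates without any feature of the set, so the 2 shares are not from like plates. In one run of 3 wells the 24 h ratios were -2.36, -1.38 and -2.36 on the first and -1.03, -1.35 and -0.83 on the second array. On the 48 h arrays the same wells gave -0.40, -0.51 and -0.51, and 0.07, 0.00 and 0.07. The 3 wells thus gave like ratios on each 48 h array, negative on the first and slightly positive on the second, a pattern of signs seen in 44 of the 80 negative features. The other run of 3 wells gave -0.98, -0.76 and -0.55 on the first 24 h array and -1.46, -0.44 and -0.64 on the second. Its 48 h ratios were of mixed sign, with -0.02, 0.19 and 0.13 on the first array and 0.18, 0.40 and -0.02 on the second. Whether neighbouring wells hold the same sequence is unstated in the sources used here, so they may not be separate genes.

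All of this holds for columns read as already turned to 1 direction by the authors. If the columns were channel 2 over channel 1 and were turned here, none of the 104 would meet the rule, since they were chosen for equal signs on arrays whose treated RNA lay in different channels. Under that reading 7 features met it, 3 positive and 4 negative. A channel or dye bias and growth hormone cannot be told apart in the set from the ratios alone.

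**Figure D5:**
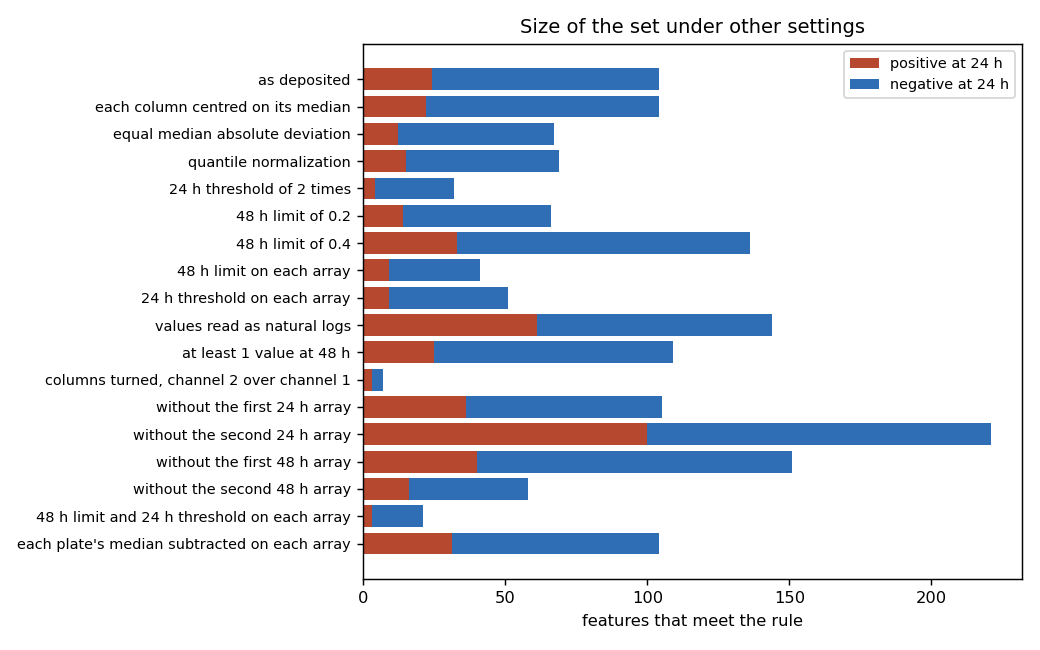
Number of features that met the rule under each setting (horizontal), split into positive and negative at 24 h. The count is 104 as deposited, between 58 and 221 when 1 array is left out, 21 with both limits on each array and 7 with columns turned by channel.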

How the data were processed

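RNA of treated and untreated rat hepatocytes was compared on 4 arrays with 2 channels, 2 at 24 h and 2 at 48 h. The deposited table holds 1 signed log ratio per feature and array, read here as log2; its log base, numerator, background correction and normalization are unstated in the sources used here. Column medians lay between -0.0034 and 0.015. The arrays had 1306, 2435, 2406 and 2790 values, and features without 4 values were left out. No intensities were used, so signal over background is unknown and the number of arrays limits precision.

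The rule was applied to the values as deposited. The limma package 3.58.1 (R 4.3.3) was used to fit all 1204 features with 4 values (functions lmFit and eBayes, 1 mean per time, two-sided, Benjamini-Hochberg over all features, threshold 0.05). The fit was tested on simulated data. Other steps used Python 3.11.15. Named features are the 2 with the highest and the 2 with the lowest 24 h mean. Members and lists were chosen with earlier results of these data known. Gene lists could not be applied without gene names.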

Additional observations from a re-analysis of the deposited data

Results flagged for a closer look

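In 10 of the 104 features (9.6%) both 48 h arrays had the sign opposite to both 24 h arrays. Over all 1204 features, both 48 h arrays were opposite to the 24 h mean in 176 (14.6%). The same held in 118 (17.6%) of the 670 features with a 48 h mean under 0.3 that did not meet the 24 h conditions. The share in the set was the smallest, but the groups are not alike. The 1204 include the 104, and neither the 1204 nor the 670 needed 1 sign or a mean away from 0 at 24 h. Their 24 h sign is thus less sure. All 10 were negative at 24 h, with means from -1.51 to -0.60 (median -0.94), and had 48 h means between 0.05 and 0.29 (median 0.13). None of the 10 passed limma's test of the difference between times after adjustment over all 1204 features, and a difference in the group of 10 as a whole was not tested.

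Outside the comparisons, 47 features had both 24 h values but fewer than 2 values at 48 h. Of these, 13 (27.7%) met the 24 h conditions, beside 271 of the 1204 with 4 values (22.5%). Among the 13, 5 had no 48 h value and 8 had 1. The 4 positive ones had 24 h means from 0.63 to 1.55 and the 9 negative ones from -1.66 to -0.59. With a single 48 h value allowed, 109 features met the rule in place of 104.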

How the results depend on the processing

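The rule gave 104 features, 24 positive and 80 negative. The count moved to 67 (12 positive) when arrays were brought to equal median absolute deviation, 69 (15 positive) on quantile-normalized values, 32 (4 and 28) with a 24 h threshold of 2 times, 66 (14 and 52) with a 48 h limit of 0.2, 41 (9 and 32) with the 48 h limit on each array, 51 (9 and 42) with the 24 h threshold on each array, 21 (3 and 18) with both on each array, and 7 (3 and 4) with columns turned as channel 2 over channel 1. Read as natural logs, with the limits kept as fold changes, the values gave 144 features, 61 positive and 83 negative, 69 of them among the 104. Median centring gave 104 (22 and 82), a 48 h limit of 0.4 gave 136 (33 and 103), and a single 48 h value allowed gave 109 (25 and 84). Leaving out 1 array gave 58 to 221 features, 16 to 100 positive and 42 to 121 negative. The exchanged rule moved from 26 to 52 on scaled values, 57 on quantile-normalized values and 31 to 64 with 1 array left out. The 64 were found without the second 48 h array, where the rule itself gave 58 and the exchanged rule lost its sign condition. Stricter limits leave fewer features by construction, and leaving out a 24 h array drops the condition of 1 sign on both 24 h arrays. Beyond this the cause of these moves was not tested.

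Of the 104 features, 15 passed limma's test at 24 h, 85 at an unadjusted p under 0.05, 9 with array weights, 8 with the treated channel as a term and 0 to 18 with 1 array left out (0 without the first 24 h array). The difference between times passed for 0, also with array weights and the channel term, for 39 at an unadjusted p under 0.05, and for 0 to 2 with 1 array left out (2 without the second 24 h array). A lone array of a time was taken to vary like the arrays of the other time. Turning all signs, which the unstated numerator allows, gives 80 positive and 24 negative features and 24 h means of -1.15 for RGIAF89, -1.12 for RGIAQ41, 2.71 for RNABO24 and 2.39 for RNABO32; turning by channel gives RNABO32 a mean of 1.36. No replicate block was fitted, since the labels give the 24 h arrays no replicate numbers.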
